A study of Rattus norvegicus with 8 samples.

Results

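The nuclear-encoded subunits of the mitochondrial respiratory chain were examined in livers of male Sprague-Dawley rats, as the single-symbol probe sets of an Affymetrix rat genome array that name a subunit of complexes I to V. Members were the genes whose symbol starts with Ndufa, Ndufb, Ndufc, Ndufs, Ndufv, Uqcr, Cox4i, Cox5, Cox6, Cox7, Cox8 or Atp5, or is Sdha, Sdhb, Sdhc, Sdhd or Cyc1, with the Ndufaf assembly factors left out. Each gene was read on its probe set with the highest mean. The rule used no difference between groups. It gave 81 of the 14217 genes that a single-symbol probe set names, and 74 of them lay above the median of their array on at least 2 of the 8 arrays and were tested, out of 9829 genes tested in all. Rats of 180 to 200 g (their age was not given in the sources used here) received GW3965, a synthetic agonist of the liver X receptors, at 50 mg/kg by gavage for 3 days, or its vehicle. On the third of these days dexamethasone, a synthetic glucocorticoid, was injected into the muscle at 1.5 mg/kg, or saline was, and livers were taken 24 h later. The 4 groups were vehicle (both vehicles), Dex (dexamethasone with the gavage vehicle), GW3965 (GW3965 with saline) and Dex+GW3965 (both compounds), with 2 arrays each, so that every animal was gavaged and injected. According to the labels the arrays of a group, lettered a and b, carry the same liver number, whereas 2 animals are described in the methods. The p-values may therefore measure only the spread between arrays.

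The respiratory chain carries electrons from NADH and succinate to oxygen. Complex I (NADH dehydrogenase) and complex II (succinate dehydrogenase) pass electrons to coenzyme Q, complex III hands them to cytochrome c, complex IV (cytochrome c oxidase) reduces oxygen, and complex V (ATP synthase) makes ATP from the proton gradient that complexes I, III and IV build. Most subunits are encoded in the nucleus, a few in mitochondrial DNA, and liver relies on the chain to pay for costly processes such as glucose and urea synthesis. The nuclear genes are known to be controlled together by the factors NRF1, GABPA, YY1 and ERRα and the coactivator PGC-1α, encoded by Ppargc1a.

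Promoter windows were searched for the letters of these factors' motifs, as a description, and their relation to the changes in signal was not tested. RefSeq windows of 300 bases, 250 of them before the start of the gene, were matched to 72 of the 81 members (build GRCr8). The letters GCGCATGC of the NRF1 motif were found, on either strand, in 7 of the 72 (9.72%), against 2.47% of all 33469 windows of that length. The GABPA letters CCGGAAG were found in 20 members (27.8%, against 8.75% of all windows) and the YY1 letters AAGATGGCG in 10 (13.9%, against 1.73%). The ERR letters TCAAGGTCA were found in Sdhd and Atp5mc3 (2.78%, against 0.433%). At least 1 of these motifs, none of which contains another, was held by 30 members (41.7%) and by 12.5% of all windows. A match is a description of letters and no measured binding site. The 250 bases before the start are shown, 5′ to 3′ on the strand of the gene, for the matched member of complexes I to IV with the largest rise after dexamethasone and for Atp5if1, the member that fell most. Capitals mark motif letters on either strand.
Ndufv2: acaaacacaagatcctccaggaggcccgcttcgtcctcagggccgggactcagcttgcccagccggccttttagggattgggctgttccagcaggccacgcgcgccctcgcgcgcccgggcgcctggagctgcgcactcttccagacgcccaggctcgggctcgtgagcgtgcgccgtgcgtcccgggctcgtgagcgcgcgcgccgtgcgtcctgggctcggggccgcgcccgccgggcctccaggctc
Sdhb: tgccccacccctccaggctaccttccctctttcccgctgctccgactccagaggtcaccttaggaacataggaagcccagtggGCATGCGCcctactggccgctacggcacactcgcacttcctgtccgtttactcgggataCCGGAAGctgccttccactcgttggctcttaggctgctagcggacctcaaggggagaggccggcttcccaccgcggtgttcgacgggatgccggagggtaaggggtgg
Uqcrh: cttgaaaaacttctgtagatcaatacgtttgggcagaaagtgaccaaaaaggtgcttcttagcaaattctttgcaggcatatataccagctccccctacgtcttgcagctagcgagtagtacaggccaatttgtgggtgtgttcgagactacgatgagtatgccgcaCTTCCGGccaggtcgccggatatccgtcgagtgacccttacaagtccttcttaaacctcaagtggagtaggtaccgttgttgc
Cox8a: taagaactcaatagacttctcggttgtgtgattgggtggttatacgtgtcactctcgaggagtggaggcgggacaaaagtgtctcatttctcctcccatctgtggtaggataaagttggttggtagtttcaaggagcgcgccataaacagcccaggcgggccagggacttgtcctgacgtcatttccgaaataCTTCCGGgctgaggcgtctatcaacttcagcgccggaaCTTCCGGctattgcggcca
Atp5if1: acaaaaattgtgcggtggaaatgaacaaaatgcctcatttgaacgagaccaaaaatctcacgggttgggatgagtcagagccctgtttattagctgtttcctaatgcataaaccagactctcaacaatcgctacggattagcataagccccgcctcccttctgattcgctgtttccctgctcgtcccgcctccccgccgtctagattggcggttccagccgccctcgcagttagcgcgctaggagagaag
These lie at chr9:113157521-113157770 (minus strand), chr5:158547684-158547933 (plus strand), chr5:134790883-134791132, chr1:213833624-213833873 and chr5:150026678-150026927 (all 3 on the minus strand). Sdhb held NRF1 letters, with the first base at -167 from the start, and GABPA letters from -108. Uqcrh held 1 GABPA match and Cox8a held 2, whereas Ndufv2 and Atp5if1 held none of the 4 motifs in this window. Atp5pb, the matched member of complex V with the largest rise after dexamethasone, is not printed and held none of them either.

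Values are log2 signals as deposited, so a difference of 1 is a doubling, and a probe set was called higher or lower at a Benjamini-Hochberg adjusted p under 0.05 from limma over all 16253 probe sets tested. The members were bright. Their means over the 8 arrays had a median of 11.32 on the log2 scale, against 7.13 over all tested probe sets, and 67 of the 74 had a mean of 10 or more. The median difference between the 2 arrays of a group was 0.0308 to 0.0423 for the members, against 0.0698 to 0.089 for all tested probe sets. Within a complex the brightest members were Ndufa4 (counted with complex I by its symbol, though now known as a subunit of complex IV), Sdhb, Uqcrq, Cox7b and Atp5f1b. Probes differ in brightness, so such an order of signals is not an order of transcript amounts.

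The 7 members that were not tested were Cox4i2, Cox6a2, Cox6b2, Cox7a1, Cox7b2, Cox8b and Ndufa4l2. Their group means all lay under 5.49, the mean of the array medians and the level taken here as background. Cox6a2, Cox7a1 and Cox8b are isoforms known from heart and skeletal muscle, and Cox6b2 and Cox7b2 are known from testis. The Cox4i2 values lay between 4.32 and 4.77 over the 8 arrays and the Cox6a2 values between 4.41 and 4.55. The broadly expressed partners Cox4i1, Cox6a1, Cox6b1, Cox7b and Cox8a were all far above background, with group means of 11.23 or more. No single-symbol probe set names Cox7a2 or Cox8c, and these were not analysed here.

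After dexamethasone alone, 64 of the 74 tested members rose and 2 fell, and 8 did not pass. Over all probe sets, 17.2% were higher and 24.7% lower in this comparison, and among the 1490 probe sets with a mean of 10 or more, 34% were higher and 41% lower. The median member stood at 0.35 on the log2 scale, or 1.27-fold, against -0.01 over all tested probe sets and -0.05 over the bright ones. The 2 Dex arrays lay above both vehicle arrays for each of the 64. The same held for Ndufa1, Ndufa6, Ndufb4, Ndufb8, Ndufs4 and Cox5a, which did not pass, so with 2 arrays a group this separation adds little to the calls. The share of all probe sets separated in this way is not given here, and nothing is concluded from the separation. Changes were moderate in size, from -0.31 for Atp5if1 to 0.77 for Ndufv2, with SEs of 0.03 to 0.18 and a median SE of 0.04. The array medians of the 74 members were 11.15 and 11.16 in vehicle, 11.52 and 11.56 in Dex, 11.20 and 11.15 in GW3965 and 11.51 and 11.47 in Dex+GW3965. Arrays with dexamethasone were thus higher than those without it, and the median deviation from vehicle over the members was 0.35 on each Dex array.

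**Figure D1:**
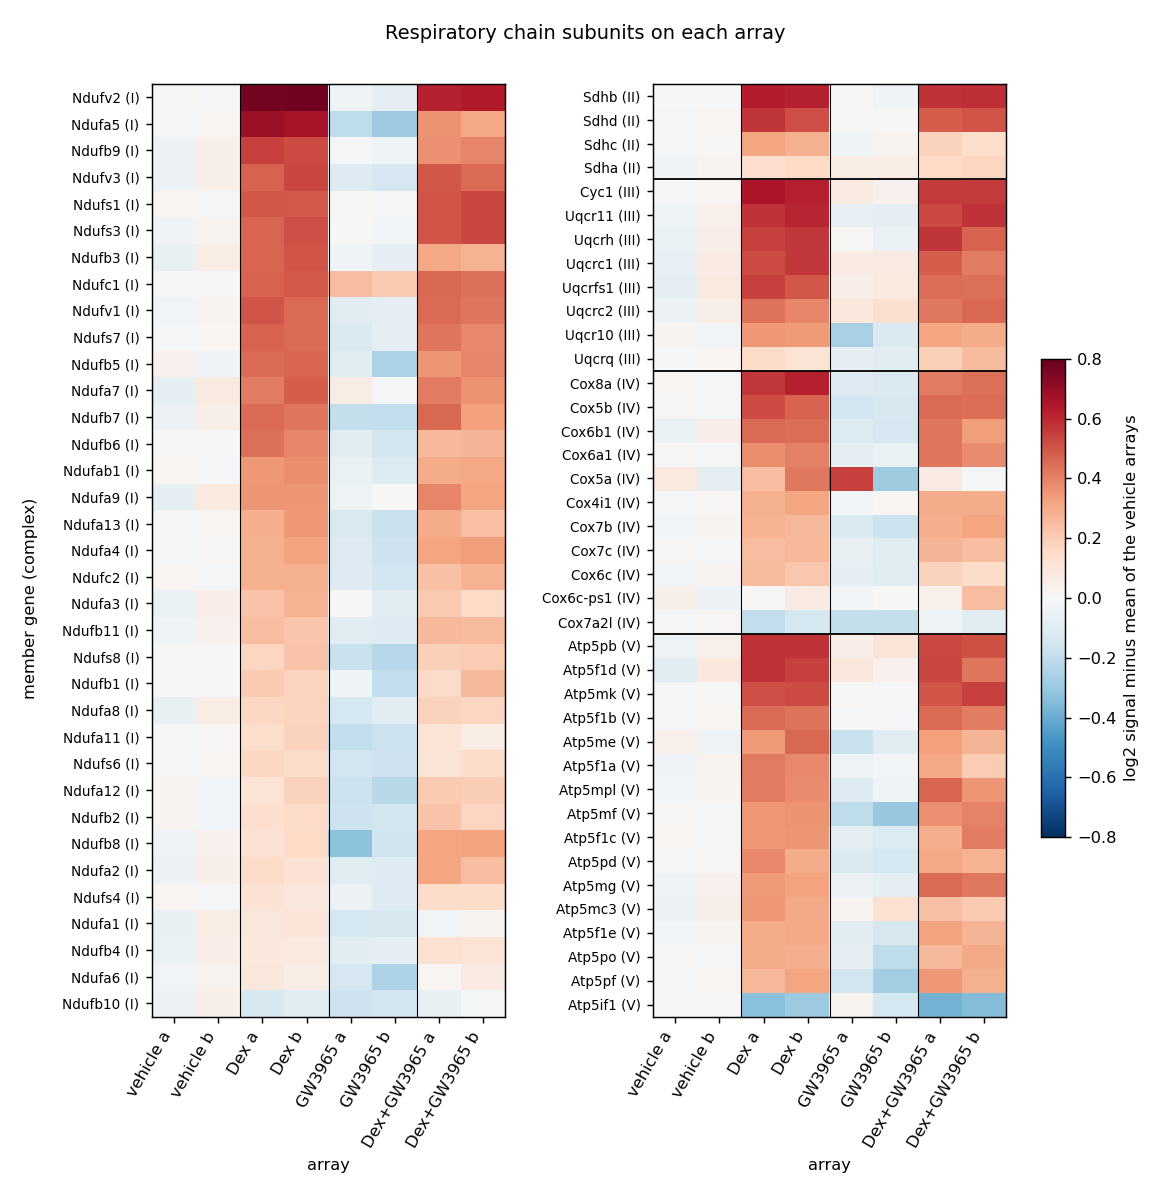
Log2 signal of each of the 74 tested members on the 8 arrays, as the difference from the mean of the 2 vehicle arrays (colour), with complex I on the left and complexes II to V on the right, ordered within a complex by the change after dexamethasone. The 4 columns of arrays with dexamethasone are red for nearly all members, whereas Atp5if1 is blue in them.

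Complex I, the entry point for NADH, had 29 of 35 tested members higher and none lower after dexamethasone, with a median of 0.31. Its catalytic core subunits, which together bind the flavin and the iron-sulfur clusters, had a median of 0.48 over 6 measured genes, and the 29 accessory subunits one of 0.25. Ndufv2, an iron-sulfur subunit of the NADH-binding module, read 10.98 and 10.96 in vehicle, 11.73 and 11.74 in Dex, 10.94 and 10.90 in GW3965 and 11.58 and 11.60 in Dex+GW3965. Its rise of 0.77 with Dex was the largest of all members (1.70-fold, SE 0.04, adjusted p from limma of 6.71e-12 with 2 arrays in each group), and the Dex+GW3965 arrays lay between those of Dex and those of vehicle. Ndufs1, Ndufs3, Ndufs7 and Ndufv1, further core subunits, rose by 0.46 to 0.49, but Ndufs8, also of the core, by 0.20 (SE 0.04, adjusted p = 0.00105 from limma). Ndufa5, an accessory subunit, stood at 8.84 and 8.87 in vehicle, 9.55 and 9.52 in Dex, 8.65 and 8.57 in GW3965 and 9.22 and 9.17 in Dex+GW3965. It rose by 0.68 with Dex (SE 0.05, adjusted p = 6.75e-09 from limma), and each of the 4 groups was separated from the others. The members of complex I that did not pass were Ndufa1, Ndufa6, Ndufb4, Ndufb8, Ndufb10 and Ndufs4, at -0.11 to 0.14. Ndufv3, a subunit of the NADH-binding module, was called in opposite directions on its 2 probe sets, at 0.50 on the brighter and -0.28 on the dimmer, so its direction depends on the probe set.

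Complex II, which oxidizes succinate and is also an enzyme of the citric acid cycle, had all 4 members higher with Dex, by unequal amounts. Sdhb, the iron-sulfur subunit, read 11.80 and 11.81 in vehicle, 12.44 and 12.43 in Dex, 11.80 and 11.78 in GW3965 and 12.39 in both Dex+GW3965 arrays. Its rise was 0.62 (SE 0.03, adjusted p = 3.46e-11 from limma). Sdhd and Sdhc, which anchor the complex in the membrane, rose by 0.54 and 0.30, and the second probe set of Sdhd by 0.57. Sdha, the flavin-bearing catalytic subunit, rose by 0.15 (SE 0.04, adjusted p = 0.00353 from limma). The change of Sdhb was thus the largest of the 4 and that of Sdha the smallest.

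All 8 members of complex III rose after dexamethasone, with a median of 0.53, the highest of the 5 complexes. Cyc1, which encodes cytochrome c1 and hands electrons to cytochrome c, stood at 11.30 and 11.33 in vehicle, 11.96 and 11.94 in Dex, 11.39 and 11.35 in GW3965 and 11.87 in both Dex+GW3965 arrays. It rose by 0.63 (SE 0.04, adjusted p = 7.39e-11 from limma). Uqcrfs1, the Rieske iron-sulfur subunit, rose by 0.52, the small subunits Uqcr11 and Uqcrh by 0.60 and 0.56, and Uqcrq by 0.13 (SE 0.03, adjusted p = 0.00499 from limma). No test was made between complexes, so the order of their medians (0.53 for III, 0.42 for II, 0.35 for V, 0.31 for I and 0.30 for IV) is a description.

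Of 11 tested members of complex IV, 8 were higher and 1 lower with Dex. Cox8a, a small subunit, read 12.06 and 12.03 in vehicle, 12.61 and 12.67 in Dex, 11.94 and 11.93 in GW3965 and 12.46 and 12.48 in Dex+GW3965, a rise of 0.59 with Dex (SE 0.03, adjusted p = 1.21e-10 from limma). Cox5b and Cox6b1 rose by 0.50 and 0.45, and Cox4i1, the subunit that binds regulatory nucleotides, by 0.30. Cox7a2l, which is known for joining complexes III and IV into supercomplexes, fell by 0.17 (SE 0.04, adjusted p = 0.00497 from limma), a call that was lost after quantile normalization and when Dex replicate a was left out. It read 9.92 and 9.94 in vehicle, 9.73 and 9.79 in Dex, 9.73 and 9.74 in GW3965 and 9.89 and 9.84 in Dex+GW3965. Its signal was lower with either compound alone, and with both together it lay between these groups and vehicle. The lower call with GW3965 alone was lost after quantile normalization, after loess normalization between arrays and without the intensity trend in the spread. Cox5a and Cox6c-ps1, the latter named as a pseudogene and open to signal from near-identical copies, were the dimmest tested members, with means of 6.33 and 5.74. Cox5a read 6.76 and 5.93 on the 2 GW3965 arrays, a wider spread than its change after either compound, and neither gene passed in any comparison.

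Complex V had 15 of 16 members higher and Atp5if1 lower. The 5 subunits of the catalytic F1 head rose by 0.31 to 0.56, with Atp5f1b, the catalytic β subunit, at 12.85 and 12.88 in vehicle, 13.32 and 13.30 in Dex, 12.86 and 12.85 in GW3965 and 13.32 and 13.28 in Dex+GW3965. Its change with Dex was 0.44 (SE 0.03, adjusted p = 2.1e-09 from limma). The 10 subunits outside the head rose by 0.29 to 0.58, led by Atp5pb, part of the peripheral stalk. Atp5if1 encodes the inhibitor that binds ATP synthase and stops it from breaking down ATP. Its values were 8.57 on both vehicle arrays, 8.23 and 8.28 in Dex, 8.59 and 8.43 in GW3965 and 8.19 and 8.22 in Dex+GW3965. With Dex it fell by 0.31 (adjusted p = 0.000626 from limma, SE 0.06), and arrays with dexamethasone did not overlap those without it. Of its 2 dimmer probe sets, 1 was not kept by the filter and the other, with a mean of 5.51, stood at -0.14 with Dex and 0.24 with Dex+GW3965 and passed in neither. In Dex+GW3965 against Dex this other probe set was called higher (0.38), whereas the brightest one stood at -0.05 and did not pass.

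**Figure D2:**
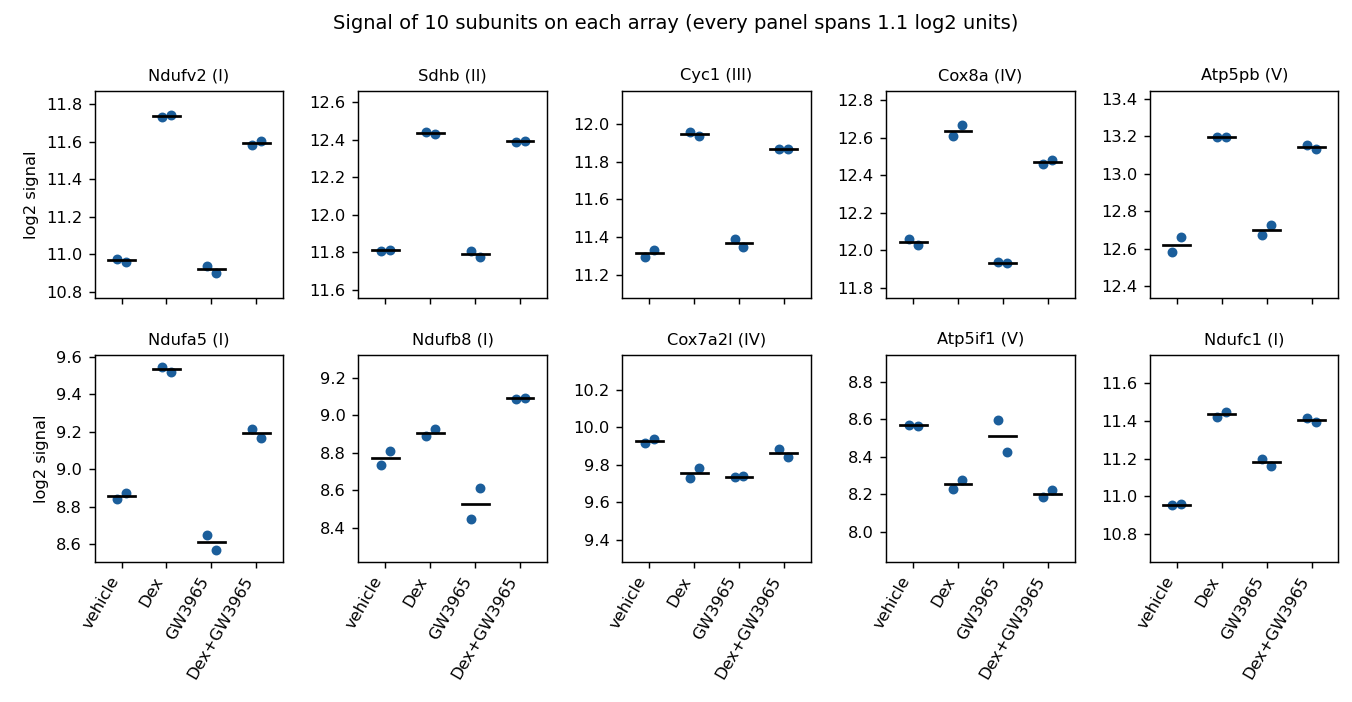
Log2 signal of 10 members on each array (points) with the group mean (line). The axis of each panel covers the same span of log2 units but does not start at 0. In the upper row all arrays with dexamethasone lie above those without it, and in the lower row Ndufa5, Ndufb8 and Ndufc1 follow the same order, Atp5if1 the opposite one and Cox7a2l neither.

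With both compounds, 66 of the 74 members were higher and 1, Atp5if1, lower than in vehicle (15.6% and 21.2% of all probe sets), with a median of 0.31 against -0.02 over all. By complex, 31 of 35, 4 of 4, 8 of 8, 8 of 11 and 15 of 16 were higher for I to V. The largest rises were those of Ndufv2 (0.63, SE 0.04), Sdhb (0.58, SE 0.03), Cyc1 (0.56, SE 0.04), Uqcr11 (0.55, SE 0.04), Uqcrh (0.52, SE 0.04) and Atp5mk, a small subunit of the synthase (0.52, SE 0.03). Atp5if1 fell by 0.36 (SE 0.06, adjusted p = 0.000181 from limma). With the probe sets of each gene averaged, this call was lost, as was the lower call of Atp5if1 in Dex+GW3965 against GW3965. The members that did not pass were Cox5a, Cox6c-ps1, Cox7a2l, Ndufa1, Ndufa6, Ndufa11 and Ndufb10.

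Dexamethasone was also read in the presence of GW3965, on arrays separate from those above. In Dex+GW3965 against GW3965, 71 of 74 members were higher and Atp5if1 lower (19% and 16.8% of all probe sets), with a median of 0.40 against -0.01 over all. Cox5a and Cox6c-ps1 did not pass. The 2 estimates of the effect of dexamethasone share no array. Of the 74 members, 65 were called in the same direction in both, against 21.6% of all probe sets, and Cox7a2l was called in opposite directions (-0.17 without and 0.13 with GW3965). Across the members Pearson's r was 0.72 and Spearman's rho 0.67, and Pearson's r over all 16253 probe sets was 0.68. These describe genes read on the same 4 pairs of arrays and are not replicates. The median change with GW3965 present is larger (0.40 against 0.35), but after quantile normalization the order turned, with 0.33 against 0.37.

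**Figure D3:**
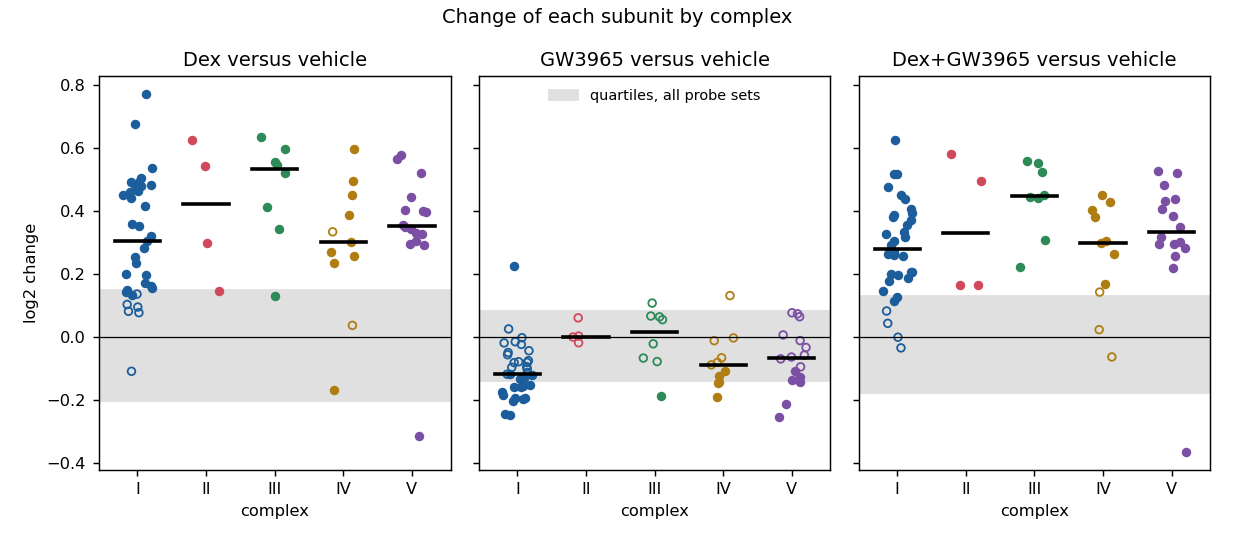
Log2 change of each tested member (points, filled where called) against vehicle for 3 comparisons, by complex, with the median of the complex (line) and the quartiles of all tested probe sets (grey band). With Dex and with Dex+GW3965 most members lie above the band, and with GW3965 most lie within it.

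With GW3965 alone, 29 members were called lower and 1 higher (14.5% and 5.93% of all probe sets, and 34.8% and 10.5% of the bright ones), and 44 did not pass. The median was -0.08, against -0.03 over all tested probe sets and -0.07 over the bright ones, so that the shift of the members was close to that of other bright probe sets. After quantile normalization 6 members were lower and 5 higher, with a median of -0.026. Of the calls made over all probe sets, the part that was higher went from 29% to 44.5%. No direction for the subunits as a group can therefore be read from GW3965 alone. The 29 lower calls also rested on single arrays, with 9 left without GW3965 replicate b and 16 without GW3965 replicate a. Complex I gave 17 of the 29 lower calls, complex V 6, complex IV 5 and complex III 1, and complex II none. Ndufa5, Atp5mf, Ndufb8, Atp5pf, Ndufs8 and Ndufa12 stood lowest, at -0.20 to -0.25. Of these, Atp5mf, a membrane subunit of the synthase, and Ndufa5 were called lower under both normalizations between arrays that were tried as well, quantile and loess. Atp5mf read 11.90 and 11.89 in vehicle, 12.24 and 12.26 in Dex, 11.69 and 11.59 in GW3965 and 12.26 and 12.29 in Dex+GW3965. With GW3965 it fell by 0.25 (SE 0.04, adjusted p = 9.56e-05 from limma). Ndufc1, an accessory subunit of complex I, was the member that rose, and it stayed called under both normalizations. It read 10.95 and 10.96 in vehicle, 11.42 and 11.45 in Dex, 11.20 and 11.16 in GW3965 and 11.42 and 11.40 in Dex+GW3965, a change of 0.23 with GW3965 (SE 0.04, adjusted p = 0.000205 from limma). All 3 treated groups lay above vehicle, and GW3965 lay lowest of them.

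Adding GW3965 to dexamethasone left most members near their level in Dex. In Dex+GW3965 against Dex, 8 members were lower and 3 higher, 63 did not pass, and the median was -0.03 against 0.02 over the bright probe sets. Of all probe sets 9.38% were lower and 13.4% higher, and of the bright ones 17% and 27.2%. Of the members 10.8% were lower and 4.05% higher, so the number of lower calls does not set them apart. The count of 8 was 4 without Dex replicate a. The 8 were Ndufa5 (-0.34), Ndufb3 (-0.19), Cox8a (-0.17), Ndufb9 (-0.16), Ndufb6 (-0.15), Ndufv2 (-0.14), Atp5f1a (-0.14) and Sdhc (-0.13), with SEs of 0.03 to 0.05. All 8 were also called lower after quantile and after loess normalization. Each had risen with Dex, but so had 64 of the 74 members in all. The comparisons of Dex with vehicle and of Dex+GW3965 with Dex also share the Dex arrays. A high reading on these arrays would give both a rise and a fall, so no conclusion is drawn from the earlier rise of the 8. Without the intensity trend in the spread, Ndufa5 was the only 1 of the 8 that passed. The 3 higher members were Ndufb8 (0.18), Ndufa2 (0.15) and Atp5mg (0.11), and none of them passed after quantile normalization. The effects of GW3965 without and with dexamethasone share no array. Called in the same direction in both were 4.49% of all probe sets and 3 of the 74 members, a number that does not set the subunits apart. These were Cox8a, Ndufa5 and Ndufb6, lower in both, and Ndufb8 was called in opposite directions (-0.24 and 0.18). Of these 4, Ndufa5 was the only 1 called lower with GW3965 alone after quantile normalization, after loess normalization and without the intensity trend, and the other calls there were lost under each. Pearson's r across the 74 members was -0.20 and Spearman's rho -0.21, against a Pearson's r of 0.09 over all probe sets.

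**Figure D4:**
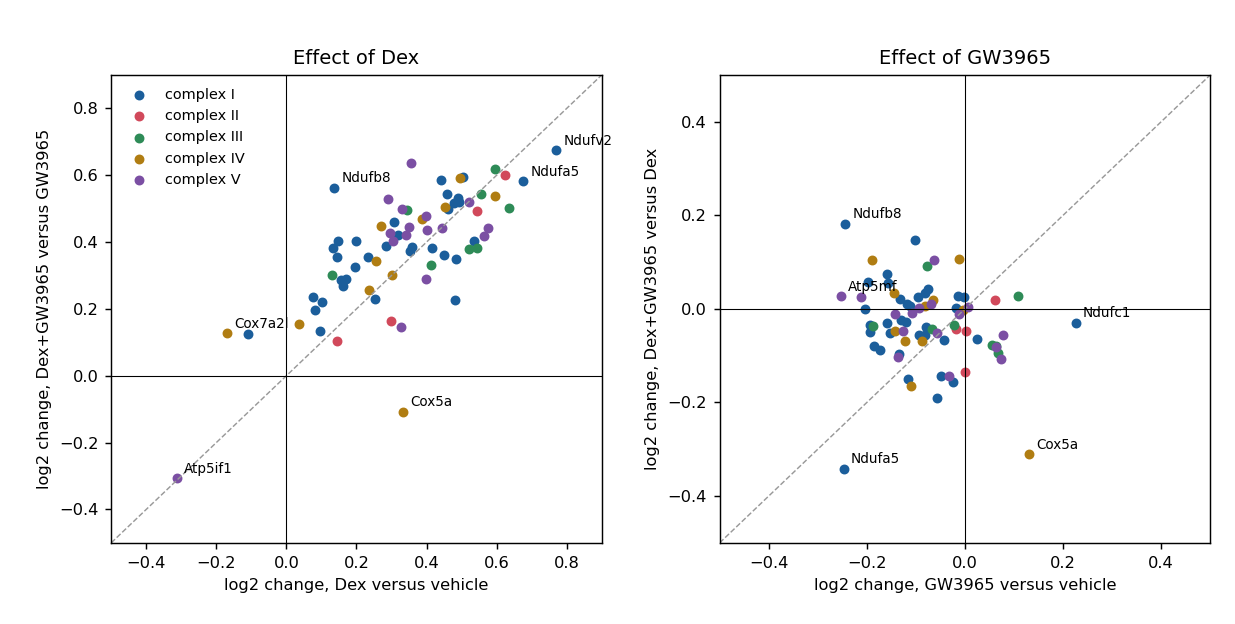
Log2 change of each tested member after 1 compound, without the other compound (horizontal axis) and in its presence (vertical axis), coloured by complex, with the line of equal change dashed. The effect of Dex (left) falls around that line for most members, with Atp5if1 at -0.31 in both, and the effect of GW3965 (right) is small, with Ndufa5 lower in both.

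The interaction, the change with both compounds beyond the sum of the single ones, was called higher for 13 members and lower for 2 (15.8% and 6.93% of all probe sets, and 36% and 10.5% of the bright ones). The median was 0.05, against 0.03 over all and 0.10 over the bright probe sets. After quantile normalization the counts were 2 higher and 11 lower. Of the calls made over all probe sets, the part that was higher went from 69.5% to 53.7%. The counts of members therefore give no direction for the subunits. Without GW3965 replicate b, 8 were higher, and without vehicle replicate b, 9 were lower. Ndufb8, an accessory subunit of complex I, had the largest called value, 0.43 (SE 0.08, adjusted p = 0.00133 from limma), and it was called higher in each normalization. It read 8.74 and 8.81 in vehicle, 8.89 and 8.93 in Dex, 8.45 and 8.61 in GW3965 and 9.09 on both Dex+GW3965 arrays. GW3965 lay lowest and Dex+GW3965 highest, with no overlap among the 4 groups. Cox7a2l (0.30), Atp5mf (0.28), Ndufa12 (0.25) and Ndufa2 (0.25) followed, and Ndufc1 stood at -0.26 (SE 0.05, adjusted p = 0.00139 from limma).

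Other genes of the pathway moved less uniformly than the subunits. Beside the list counts that follow, 17.2% of all probe sets were higher and 24.7% lower with Dex. Of the bright ones, 34% were higher and 41% lower. Of 41 tested assembly factors, 11 rose and 5 fell with Dex (median 0.09), among them Cox11 (0.57), which delivers copper to complex IV, and Acad9 (0.43), a complex I factor. In the list for cytochrome c and coenzyme Q the 10 tested genes all belong to coenzyme Q, and 3 of them rose and 2 fell. Coq10b, which binds coenzyme Q, rose most, with group means of 8.00 in vehicle, 9.31 in Dex, 8.21 in GW3965 and 8.20 in Dex+GW3965, while Coq8a, a kinase-like protein of coenzyme Q synthesis, fell by 0.61. The rise of Coq10b with Dex was 1.31 (SE 0.07, adjusted p = 9.16e-11 from limma), and in Dex+GW3965 it fell by 1.11 from its level in Dex (SE 0.07, adjusted p = 4.23e-09 from limma). COX1 and COX2, the 2 measured subunits encoded in mitochondrial DNA, stood at 0.03 and 0.00 with Dex and did not pass. Their group means lay between 14.31 and 14.48 in all 4 groups, and COX1 was higher in Dex+GW3965 than in vehicle (0.16, SE 0.04, adjusted p from limma 0.00486).

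Of 19 genes of pyruvate dehydrogenase and the citric acid cycle, 12 rose and 3 fell with Dex, with a median of 0.25. Pdhb, a subunit of pyruvate dehydrogenase, rose by 1.09 (SE 0.04, adjusted p = 1.23e-13 from limma) and Idh2, a mitochondrial isocitrate dehydrogenase, by 0.77, while Pdk4, a kinase that shuts pyruvate dehydrogenase off, fell by 1.43 (adjusted p = 6.63e-13 from limma, SE 0.06) and Pdk1, a kinase of the same family, rose by 0.85. Of 9 genes for ATP export, the phosphate carrier, porins and uncoupling, a list that holds the member Atp5if1 too, 2 rose and 3 fell. Slc25a3, the phosphate carrier, and Slc25a5, an ATP/ADP exchanger, stood at 0.38 and 0.32, and the uncoupling protein gene Ucp2 at -0.61. The mitochondrial ribosomal proteins, of which 19 of 73 rose and 11 fell, had a median of 0.02, and the cytosolic ones, of which 6 of 40 rose and 16 fell, one of -0.05. With GW3965 alone 20 of the 73 mitochondrial and 10 of the 40 cytosolic ribosomal proteins were lower and none was higher, with medians of -0.11 and -0.07. In that comparison 14.5% of all probe sets and 34.8% of the bright ones were lower, and 5.93% and 10.5% higher. The lower calls of the subunits there depended on the normalization, and no direction is read from these ribosomal counts.

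Of 13 tested regulators of mitochondrial biogenesis, 4 rose and 4 fell with Dex. Ppargc1a, the coactivator named above, had group means of 5.63 in vehicle, 6.55 in Dex, 5.63 in GW3965 and 5.77 in Dex+GW3965, close to the background level of 5.49 in all but Dex. It rose by 0.92 with Dex (SE 0.13, adjusted p = 1.38e-05 from limma), and in Dex+GW3965 it was lower than in Dex by a log2 change of -0.78 (SE 0.13, adjusted p = 0.00024 from limma). Esrra, which encodes ERRα, rose by 0.47 and Polrmt, the mitochondrial RNA polymerase, by 0.46, whereas Gabpb1, the partner of GABPA, fell by 0.54. Tfam, which packs mitochondrial DNA, stood at -0.11 and did not pass.

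**Figure D5:**
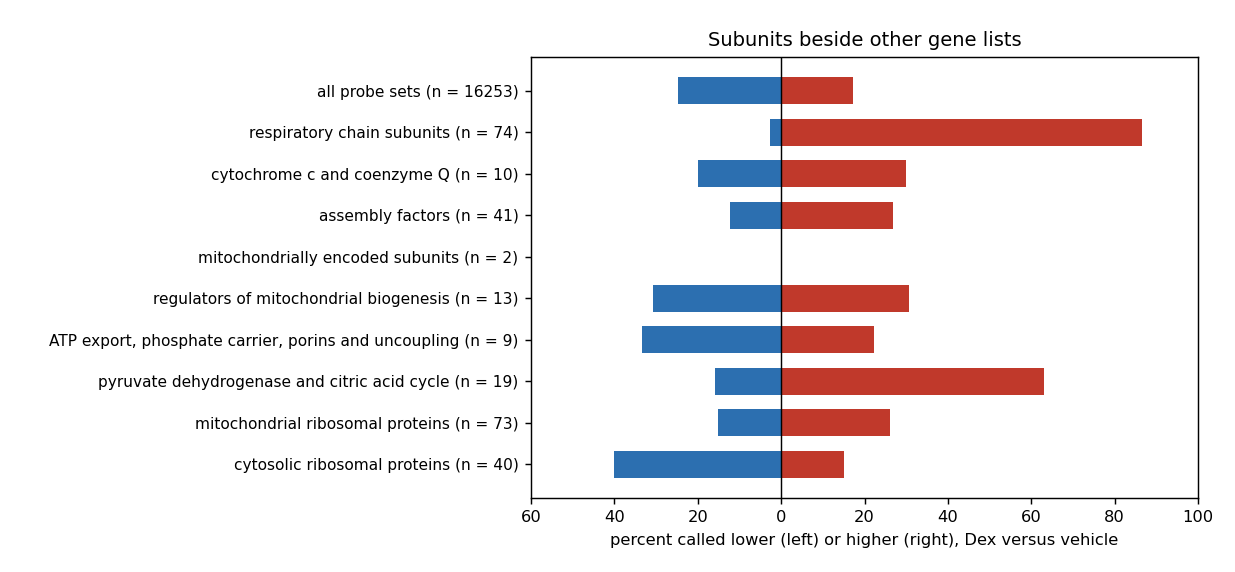
Percent of the tested genes of each list called higher (red, to the right) or lower (blue, to the left) in Dex against vehicle, with all probe sets at the top and the number tested in parentheses. The respiratory chain subunits reach 86.5% higher and 2.7% lower, and the lists of pyruvate dehydrogenase and the citric acid cycle come next with 12 of 19 higher.

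The arrays were from whole liver, and fewer cells of a type and less RNA per cell cannot be told apart. All 6 hepatocyte markers were well above background, and their summed log2 level was 16.23 to 16.29 in vehicle, 16.32 to 16.34 in Dex, 16.22 to 16.25 in GW3965 and 16.34 in Dex+GW3965. Of these 6, 1 was higher and 2 lower with Dex, 2 were lower with GW3965, and 2 were higher and 3 lower with Dex+GW3965. Of 7 stellate cell markers, 5 were lower with Dex and 1 higher (summed level 12.27 to 12.28 in vehicle, 11.49 to 11.53 in Dex, 11.97 to 11.999 in GW3965 and 11.46 to 11.48 in Dex+GW3965), and of 5 sinusoidal endothelial markers 3 were lower (11.41 to 11.46 against 11.10 in Dex). Of 7 Kupffer cell markers, 3 were lower and 1 higher (12.04 to 12.11 against 11.94 to 11.95), both neutrophil markers were lower, as were 1 of 3 erythrocyte, 1 of 2 tested cholangiocyte and the 1 tested lymphocyte marker. With GW3965 alone, 4 of the 7 Kupffer cell markers were higher (summed level 12.41), 2 of 3 erythrocyte markers were higher and 1 lower (14.11 to 14.19, against 13.49 to 13.59 in vehicle), 5 of the 7 stellate cell and both neutrophil markers were lower, and 3 of the 5 testis markers were higher. With Dex+GW3965, 3 of 7 Kupffer cell, 4 of 7 stellate cell, 4 of 5 sinusoidal endothelial, all 3 erythrocyte (13.09 to 13.12) and both neutrophil markers were lower than in vehicle. All 5 testis markers passed the filter, and their summed level was 9.36 to 9.46 in vehicle and 9.78 in GW3965, but 7.31 to 7.38 in Dex and 7.53 to 7.65 in Dex+GW3965, so testis transcripts differed between the arrays without and with dexamethasone. The testis isoforms Cox6b2 and Cox7b2 were under background on all arrays, so no difference between groups, or lack of one, is read from them. Of 9 striated muscle markers, 8 were under background in every group and Myh1 alone passed, higher with Dex. Of 3 brown fat markers, Ucp1 and Adipoq were under background while Cidea was called higher with Dex. The summed level of these 3 was 7.08 to 7.15 in vehicle and 10.06 to 10.13 in Dex. Beside these marker counts, 17.2% of all probe sets were higher and 24.7% lower with Dex. The shares were 5.93% and 14.5% with GW3965, and 15.6% and 21.2% with Dex+GW3965. The part of these markers in the results on the subunits was not tested.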

How the data were processed

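Liver mRNA was measured on 8 arrays, which were grouped by the labels. The authors deposited log2 signals, 1 per probe set. Per the methods, probes were re-assigned to UniGene clusters and signals were taken from perfect-match probes, with the background subtracted as in MAS. MAS5, with no version, is the tool in the submitters' processing notes. Detection calls, scan dates and a step of normalization are not given in the sources used here, and array medians lay between 5.48 and 5.52. Their number, 2 per group, limits the precision. Of 31099 probe sets, 57 controls were removed and 16253 of the rest lay above the median of their array on at least 2 arrays. Of the 31042, the platform annotation gives 20826 1 symbol, 436 several and 9780 none. All 81 members were matched to RefSeq by gene identifier.

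A group means model over all 8 arrays was fitted with limma 3.58.1 in R 4.3.3 (eBayes with an intensity trend, 4 residual degrees of freedom, prior 12.7) for 6 comparisons, with Benjamini-Hochberg adjustment over 16253 probe sets. The model was run on simulated data with independent noise and no shift between arrays. That run cannot show how the calls behave where arrays are shifted. Promoters were read with Python 3.11. The members and lists were chosen with earlier results of these data known. Genes were named by a rule: the 6 largest rises and falls called without overlap in the comparisons with vehicle and of Dex+GW3965 with Dex, the 6 largest interactions, the brightest member of each complex, the Sdh genes, Cyc1, the cytochrome c oxidase isoforms, Atp5if1, members not tested or called in opposite directions on different probe sets, and up to 4 called genes of each list. Other members named were chosen after their values were seen. Alternatives were no filter, a filter on the mean signal, quantile normalization, no intensity trend, a replicate block, averaged probe sets, the methods' t-test, leaving out each array, and, chosen after seeing the data, loess normalization between arrays.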

Additional observations from a re-analysis of the deposited data

Results flagged for a closer look

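For 15 members the change with both compounds differed from the sum of the single changes at an adjusted p under 0.05 from limma, which is the test of whether the effect of dexamethasone differs with and without GW3965. The 13 higher and 2 lower of 74 stood beside 15.8% and 6.93% of all probe sets and 36% and 10.5% of those with a mean of 10 or more, so their number does not set the subunits apart. On the log2 scale these differences were 0.43 for Ndufb8, 0.30 for Cox7a2l, 0.28 for Atp5mf, 0.25 for Ndufa12, 0.25 for Ndufa2, 0.24 for Atp5pf, 0.23 for Ndufb10, 0.21 for Ndufb2, 0.20 for Ndufs8, 0.18 for Cox7b, 0.17 for Uqcrq, 0.17 for Atp5mg and 0.15 for Ndufa4, and they were -0.18 for Atp5mc3 and -0.26 for Ndufc1. Of the 13 positive values, Atp5mf and Ndufb8 were also called after quantile normalization, and Atp5mf, Cox7a2l and Ndufb8 after loess normalization between arrays. Both negative values were called after either. Without the intensity trend, Cox7a2l and Ndufb8 were the members called.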

How the results depend on the processing

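Kept in direction and within 1.5 times in count were, under the alternatives run, the members higher with Dex (55 to 69, the lowest by the methods' t-test and the highest after loess normalization, and 61 to 66 without 1 array) and with Dex+GW3965 against vehicle (62 to 66 without 1 array), though the methods' t-test left 45 there. That t-test, with 1 degree of freedom, gave 55, 2, 45, 2 and 51 members higher and 1, 12, 1, 8 and 1 lower for Dex, GW3965 and Dex+GW3965 against vehicle and Dex+GW3965 against Dex and GW3965, and none of the members after Benjamini-Hochberg adjustment. Of the 64 members higher with Dex, 64 were also called after quantile normalization and 56 without the intensity trend.

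Counts that moved did so mostly where changes were small. After quantile normalization the members lower with Dex were 1 (median 0.37), those lower and higher with GW3965 were 6 and 5 (median -0.026), those higher in Dex+GW3965 against Dex were 0, the median against GW3965 was 0.33, and the interaction had 11 lower and 2 higher (median -0.026). After loess normalization the median with Dex was 0.38, GW3965 had 4 lower and 8 higher (median -0.0095), 1 member was higher in Dex+GW3965 against Dex, the median against GW3965 was 0.35, and the interaction had 15 lower and 3 higher, with its median turned to -0.052. Without the intensity trend 3 members were lower with GW3965, 1 was lower and 0 higher in Dex+GW3965 against Dex, and the interaction had 0 lower and 2 higher. Without a filter 0 were higher in Dex+GW3965 against Dex. With probe sets averaged, 2 were higher with GW3965 and 0 lower in Dex+GW3965 against vehicle and against GW3965. The cause was not tested, beyond what each construction changes.

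Leaving out each array in turn gave 1 to 3 members lower with Dex, 9 to 28 lower and 1 to 7 higher with GW3965, 4 to 10 lower and 0 to 4 higher in Dex+GW3965 against Dex, 1 to 2 lower against GW3965, and 1 to 9 lower and 8 to 17 higher in the interaction. The 9 came without GW3965 replicate b, and 16 without GW3965 replicate a. The 7 and the 9 lower interactions came without vehicle replicate b, the 8 higher interactions without GW3965 replicate b, the 1 lower interaction without vehicle replicate a, Dex replicate a or Dex+GW3965 replicate b, and the 1 lower with Dex and the 4 lower against Dex without Dex replicate a. None was higher against Dex without Dex replicate a, Dex replicate b or Dex+GW3965 replicate a. The lone array left in a group was taken to vary like the other groups.

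Deviations of same-lettered arrays correlated at -0.23 to 0.08. With 1 array per letter in a group, these values cannot show whether the letters a and b mark a shared animal or batch. With the letter as a replicate block, 64 members were higher and 2 lower with Dex, 1 and 24 with GW3965, 65 and 1 with Dex+GW3965, 2 and 8 against Dex, 70 and 1 against GW3965, and 13 and 2 in the interaction.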
